A study of Mus musculus with 2 samples.

Results

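Extracellular nucleotides are read by a family of receptors in the microglial membrane, and 10 genes of this signalling system were examined in sorted microglia of the mouse brain. They encode the P2Y receptors P2ry12, P2ry13 and P2ry6, the P2X channels P2rx4 and P2rx7, the ectonucleotidases Entpd1 and Nt5e, and the adenosine receptors Adora1, Adora2a and Adora3. The genes were chosen by name and function, and all 10 were found among the 53801 genes listed in the count data. Both libraries came from Cx3cr1(CreER/wt) mice on a C57BL/6 background. In these mice 1 allele of Cx3cr1, the fractalkine receptor gene of microglia and other myeloid cells, is replaced by a Cre that tamoxifen switches on. Each library was made from the brain of 1 male mouse of 8 to 10 weeks by the labels, taken 3 days after sham surgery. Tamoxifen had been injected at 75 mg/kg per day for 4 days, starting 14 days before surgery. The study's methods give an older age range and both sexes. Cells of the left hemisphere were sorted as CD11c–Ly6G–CD11b+CD45low. The 2 libraries form a single group, so levels are described for each mouse and no condition is tested.

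ATP released by stressed, active or dying cells opens P2X channels, and its breakdown products act further on. CD39, the product of Entpd1, turns ATP and ADP into AMP, and CD73, the product of Nt5e, turns AMP into adenosine. ADP is sensed by the Gi-coupled receptors P2Y12 and P2Y13, UDP by the Gq-coupled receptor P2Y6, and adenosine by the receptors of Adora1 and Adora3, which couple to Gi, and of Adora2a, which couples to Gs. In microglia, P2Y12 is known for steering processes toward sites of injury and as a marker of the resting state, P2Y6 for the uptake of damaged neurons, and P2X7 for the release of IL-1β.

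Promoter windows from RefSeq, 250 bases before and 50 bases after an annotated transcript start in GRCm38.p6, were at hand for 8 of the 10 genes, in 11 windows. P2ry6 and Adora2a had none. The windows of P2ry12, P2ry13 and Nt5e are shown because they belong to the pair of genes with the highest levels and to the gene whose level differed most between the mice. Capitals mark matches to GAGGAA, the core of the site bound by the myeloid factor PU.1, or to GGAAGT, a site of the wider ETS family, on either strand. The windows lie at chr3:59262936-59263235 (minus strand), chr3:59210833-59211132 (minus strand) and chr9:88327359-88327658 (plus strand).
P2ry12: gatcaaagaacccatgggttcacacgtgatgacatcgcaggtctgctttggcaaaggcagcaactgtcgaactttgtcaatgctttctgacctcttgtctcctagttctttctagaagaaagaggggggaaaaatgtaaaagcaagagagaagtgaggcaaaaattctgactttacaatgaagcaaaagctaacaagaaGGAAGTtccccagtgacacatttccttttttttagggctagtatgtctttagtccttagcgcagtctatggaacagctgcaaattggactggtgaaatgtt
P2ry13: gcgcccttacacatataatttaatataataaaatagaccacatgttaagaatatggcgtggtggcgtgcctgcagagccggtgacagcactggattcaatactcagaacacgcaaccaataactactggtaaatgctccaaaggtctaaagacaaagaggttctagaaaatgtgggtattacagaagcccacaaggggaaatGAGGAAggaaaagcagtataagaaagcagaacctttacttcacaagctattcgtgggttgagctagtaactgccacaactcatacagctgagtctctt
Nt5e: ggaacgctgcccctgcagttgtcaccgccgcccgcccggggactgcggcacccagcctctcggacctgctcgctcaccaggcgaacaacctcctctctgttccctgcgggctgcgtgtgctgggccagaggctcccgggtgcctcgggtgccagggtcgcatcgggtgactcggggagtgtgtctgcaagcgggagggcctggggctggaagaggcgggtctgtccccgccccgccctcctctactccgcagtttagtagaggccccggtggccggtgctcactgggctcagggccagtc
The P2ry12 window held GGAAGT 51 bases before the start, and the P2ry13 window held GAGGAA 48 bases before it. The windows of P2ry12 and P2ry13 were alike in composition, with a GC content of 42.3% in each and 4 and 6 CpG dinucleotides. The Nt5e window had a GC content of 71.0% and 23 CpG dinucleotides, and neither motif. Over all 32851 mouse windows of this length, the median GC content was 52.7% and the median number of CpG dinucleotides was 7. GAGGAA was found in windows of 4 of the 8 genes (P2ry13, P2rx7, Entpd1 and Adora3) and in 28.3% of all windows. GGAAGT was found for 4 of the 8 genes (P2ry12, P2rx7, Adora1 and Adora3) and in 23.8% of all windows. Counts by gene and shares by window are unlike units, since P2rx7, Entpd1 and Adora1 had 2 windows each. No enrichment is read from them. In P2rx7, which had 2 windows, all matches began at or before base 19 of the transcript, and in Adora3 the 2 motifs overlapped. TATAAA was found in no window of the 8 genes and in 13.6% of all windows.

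Sham library 1 held 23381026 counts on genes and library 2 held 41142609, so counting error was smaller in library 2. Levels are in CPM, the counts of a gene per 1000000 counts of its library. The limit set by an observed 0 is 3 counts, or 0.128 and 0.0729 CPM in libraries 1 and 2. All intervals are for counting error only and do not cover the spread between mice. Of the 4 antigens used for sorting, Itgam (CD11b) had 290 and 131 CPM and Ptprc (CD45) 418 and 381 CPM, and all 10 microglial markers, among them Tmem119 and Csf1r, were at 146 CPM or more in both libraries. The gate excluded CD11c and Ly6G, yet Itgax had 14.2 and 3.94 CPM and Ly6g 15.4 and 211 CPM. The libraries stood apart in other cells' genes. The 10 markers of immature neutrophils summed to 2109.7 and 34084 CPM, and those of mature neutrophils to 3523 and 31667 CPM. Genes that reached 10 counts in each library, 13445 in all, are called counted here. Their median log2 ratio of library 2 to library 1 was −0.26 for CPM and −0.03 with TMM library sizes, and the ratio of a gene is read against it. Percentages of genes that differed less use the size of the CPM log2 ratio itself, not its distance from this median.

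Together the 10 genes took 0.917% of the counts on genes in library 1 and 1.17% in library 2. Of the 10 genes, 8 were counted in both libraries, against 25.0% of all genes listed. The exceptions were Nt5e, with 9 counts in library 1, and Adora2a, with 3 counts in library 2. Per kilobase of exon, which allows levels of different genes to be compared, the order by the mean of the libraries was P2ry12, P2ry13, P2ry6, Entpd1, P2rx7, P2rx4, Adora3, Nt5e, Adora1 and Adora2a. P2ry12 and P2ry13 held the first and second place in each library. The ranges over the 2 mice did not overlap between P2ry12 and P2ry13, between P2ry13 and P2ry6, between Entpd1 and P2rx7, between P2rx4 and Adora3, or between Adora3 and Nt5e. They overlapped between P2ry6 and Entpd1, between P2rx7 and P2rx4, and among Nt5e, Adora1 and Adora2a. Within each library P2rx7 stood above P2rx4 and Adora1 above Adora2a. The order of P2ry6 and Entpd1 and the place of Nt5e changed between the libraries. With 2 mice, the order within those sets is not settled. In bulk samples, fewer cells of a type and less RNA per cell cannot be told apart.

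**Figure D1:**
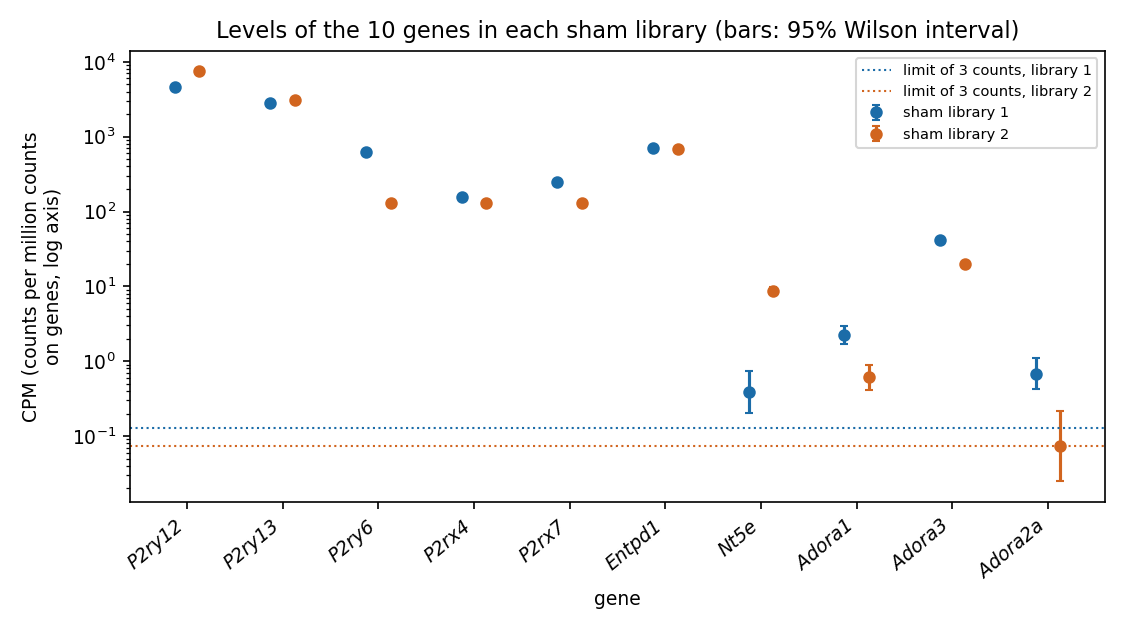
Level of each of the 10 genes in sham library 1 (blue) and library 2 (orange), in CPM on a log axis, with 95% Wilson intervals for counting error and dotted lines at 3 counts. P2ry12 and P2ry13 lie at 2794 CPM or more in both libraries, and Nt5e, Adora1 and Adora2a lie below 10 CPM in both.

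P2ry12, the ADP receptor of resting microglia (chromosome 3 of GRCm38, 59216272 to 59262871, minus strand), had 106972 counts in library 1 and 306528 in library 2. Its level was 4575 CPM (95% Wilson interval 4548 to 4603) and 7450.4 CPM (7424 to 7477), or 6013 ± 2033 CPM (SD, n = 2). It stood above 99.9% of the counted genes in each library. Library 2 was the higher, with a log2 ratio of 0.70, and 0.93 with TMM library sizes. The difference was larger than counting error. By size alone, whatever the direction, 55.9% of counted genes differed less between the mice and the others differed as much or more. Rises were rarer than falls, since 5.74% of counted genes were more than 2-fold higher in library 2 and 25.9% more than 2-fold lower. With TMM library sizes these shares were 8.32% and 20.1%. P2ry12 was higher but within 2-fold on both scales. P2ry12 made up 54.1% of the level per kilobase summed over the 10 genes in library 1 and 67.0% in library 2.

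P2ry13, the second ADP receptor, lies next to P2ry12 on the same strand (chromosome 3, 59207892 to 59210882). It had 65331 and 127703 counts, or 2794 and 3104 CPM, a mean of 2949 ± 219 CPM (SD, n = 2). The 2 mice were close, with a log2 ratio of 0.15 on the CPM scale, which was 0.38 with TMM library sizes and reversed to −0.05 after the adjustment for GC content and length described below. The ratio of P2ry12 to P2ry13 within a library does not depend on its scaling. Per kilobase of exon it was 1.63 (exact 95% interval 1.61 to 1.64) in library 1 and 2.38 (2.37 to 2.40) in library 2. Both receptors lie within the span of Med12l, a Mediator subunit gene on the opposite strand, which had 56.5 and 33.7 CPM. Med12l exons shared 9 bases with P2ry12 exons, or 0.353% of them, and none with P2ry13, so little of either count depends on how overlapping reads were assigned. Neighbouring receptor genes of this cluster were low, with 1.03 and 3.01 CPM for P2ry14, a receptor for UDP-sugars, and 1.97 and 4.50 CPM for Gpr171. Gpr34, a microglial receptor of related sequence on chromosome X, had 933 and 1629 CPM per kilobase, a range that overlapped that of P2ry13 with 1105 and 1228 CPM per kilobase. The ratio of P2ry12 to Gpr34 per kilobase was 1.93 in library 1 and 1.80 in library 2, and that of P2ry13 to Gpr34 was 1.18 and 0.754.

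P2ry6, the UDP receptor (chromosome 7, 100937630 to 100974649, minus strand), had 14691 counts in library 1 and only 5420 in the deeper library 2. The levels were 628 CPM (95% Wilson interval 618 to 639) and 132 CPM (128 to 135), or 380.0 ± 351 CPM (SD, n = 2). This was 4.77-fold lower in library 2, a log2 ratio of −2.25 with an exact 95% interval of −2.30 to −2.21 for counting error. Of the counted genes, 94.1% differed less between the mice, and so did 95.3% of the genes in the same decile by mean CPM. The level of P2ry12 per kilobase was 8.26 times that of P2ry6 in library 1 and 64.1 times in library 2. P2ry2, a receptor for ATP and UTP that is also on chromosome 7, had 1.61 and 0.712 CPM per kilobase, beside 218 and 45.6 for P2ry6. Border macrophage markers were also lower in library 2. Their 8 genes summed to 1164 and 454 CPM, and none was at 0. In library 2, 4 of them (Cd163, F13a1, Mrc1 and Stab1) were more than 2-fold lower, where 25.9% of all counted genes were. Cbr2, Lyve1 and Pf4 were within 2-fold, and Ms4a7 was the higher in library 2 with 47.4 and 59.0 CPM. Of the 10 microglial markers, 3 were also more than 2-fold lower in library 2, with 14910 and 5934 CPM for Csf1r, 1252 and 339.7 CPM for Tgfbr1 and 337 and 146 CPM for Sall1. These marker levels were not adjusted for transcript length or GC content, with which the ratios of all genes varied, as described below. The part of either cell type in the levels of P2ry6 or Adora3 was not tested.

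P2rx4, an ATP-gated channel (chromosome 5, 122707544 to 122729738, plus strand), had 3696 and 5280 counts, or 158 and 128 CPM. Its log2 ratio of −0.30 was close to the median of all counted genes on the same scale, and it was −0.07 with TMM library sizes. P2rx7, the channel that opens at high ATP (chromosome 5, 122643911 to 122691432, plus strand), had 5842 and 5358 counts, or 250 and 130 CPM. It was 1.92-fold lower in library 2, a log2 ratio of −0.94 that became −0.08 after adjustment for GC content and length. Per kilobase of exon, P2rx7 had 41.9 and 21.8 CPM and P2rx4 22.5 and 18.3 CPM. The ratio of P2rx7 to P2rx4 per kilobase was 1.86 (exact 95% interval 1.78 to 1.94) in library 1 and 1.19 (1.15 to 1.24) in library 2. Which of these channels had the higher mean depended on the length used, since over the mean of the protein-coding transcripts P2rx4 stood at 85.1 and P2rx7 at 81.4 CPM per kilobase.

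Entpd1, which encodes CD39 (chromosome 19, 40612366 to 40741602, plus strand), differed least between the mice of the 10 genes on the CPM scale. It had 16738 and 28113 counts, or 716 and 683 CPM, a mean of 699.6 ± 23.0 CPM (SD, n = 2). The log2 ratio of −0.07 was smaller in size than that of all but 6.34% of counted genes, and it changed sign to 0.16 with TMM library sizes. Nt5e, which encodes CD73 (chromosome 9, 88327197 to 88372092, plus strand), showed the opposite picture. It had 9 counts in library 1, or 0.385 CPM (95% Wilson interval 0.203 to 0.732), and 360 counts in library 2, or 8.75 CPM (7.89 to 9.70). The level in library 2 was 22.7-fold higher, a log2 ratio of 4.51 with an exact 95% interval of 3.57 to 5.65. Per kilobase of exon, the level of Entpd1, whose enzyme makes AMP, exceeded that of Nt5e, whose enzyme makes adenosine from it, by 2867-fold (1510 to 6271) in library 1 and by 120-fold (109 to 134) in library 2. Some marker lists of other cells were also higher in library 2 and others were not. Beside the neutrophil markers given above, the 8 markers of basophils or mast cells summed to 10 counts in library 1 and 7001 in library 2, the 6 markers of the choroid plexus to 24.2 and 367 CPM, and the 6 of monocytes to 307 and 626 CPM. The astrocyte markers summed to 232 and 191 CPM, nearly all from Slc1a3 with 219 and 169 CPM. Of the others, Aldoc, Gja1 and Aqp4 were higher in library 2, and Gfap and Slc1a2 were lower. The 6 T cell markers summed to 4.62 and 5.61 CPM, with Cd3e and Cd8a at 0 in both libraries and Cd3d at 3 and 109 counts, and the 6 endothelial cell markers to 18.7 and 16.0 CPM, with Cldn5 at 1 count in each. The 6 B cell markers summed to 569.9 and 778 CPM, nearly all from Ighm and Cd79b, with Pax5 at 0 in library 1. The part of any of these cells in the Nt5e level was not tested.

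Adora3, which encodes the A3 receptor, had the highest level per kilobase of the adenosine receptors (chromosome 3, 105870858 to 105908926, plus strand). It had 976 and 818 counts, or 41.7 and 19.9 CPM, and was 2.10-fold lower in library 2. The log2 ratio was −1.07 (exact 95% interval −1.21 to −0.93), and −0.84 with TMM library sizes. Adora3 is also known from mast cells. The 8 markers of basophils or mast cells summed to 10 counts in library 1, from Cpa3, Gata2 and Tpsb2 with the other 5 at 0, and to 7001 counts in library 2. In library 2 the largest were Prss34 with 4743 counts and Mcpt8 with 1484, and the smallest Cma1 with 46 and Tpsb2 with 19. This sum does not separate basophils from mast cells, and the part of mast cells in the Adora3 level was not tested. The exons of Adora3 share 20.9% of their bases with those of Tmigd3 on the same strand, so reads in that stretch cannot be assigned to either gene. Tmigd3 itself had 40 and 62 counts. Adora1, which encodes the A1 receptor (chromosome 1, 134199223 to 134235431, minus strand), had 52 and 25 counts, or 2.22 and 0.608 CPM, a log2 ratio of −1.87 (−2.62 to −1.16) that became −0.34 after adjustment for GC content and length. For Adora1, 20.1% of exon bases overlap Mybph on the opposite strand, and whether counting used the strand is not given in the sources used here. Adora2a, which encodes the Gs-coupled adenosine receptor (chromosome 10, 75316877 to 75334784, plus strand), had 16 and 3 counts, or 0.684 CPM (95% Wilson interval 0.421 to 1.11) and 0.0729 CPM (0.0248 to 0.214). The count in library 2 equals the limit that a count of 0 allows, and the log2 ratio of −3.23 has a counting interval from −5.65 to −1.43. Adora2b, the low-affinity receptor, had 1.58 and 2.97 CPM. The 4 adenosine receptors together made up 0.394% and 0.166% of the CPM per kilobase summed over all 20 P2X, P2Y and adenosine receptor genes.

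More than 2-fold apart were 3 of the 8 counted members, all lower in library 2 (P2ry6, Adora1 and Adora3). Adora1 was within 2-fold after the adjustment for GC content and length. Over all counted genes, 31.7% differed by more than 2-fold, 25.9% lower and 5.74% higher in library 2, so the members' count is near that of genes in general. The median log2 ratio of the 8 members was −0.62, beside −0.26 for all counted genes. Adora3 lay just past the threshold at 2.10-fold and P2rx7 just short of it at 1.92-fold. Adora3 was within 2-fold with TMM library sizes and with DESeq2 size factors, which left 2 of the 8 members (P2ry6 and Adora1) over the threshold in each. With TMM library sizes 28.4% of counted genes were past it, 20.1% lower and 8.32% higher, and with DESeq2 size factors 28.3% were, 19.0% lower and 9.28% higher.

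**Figure D2:**
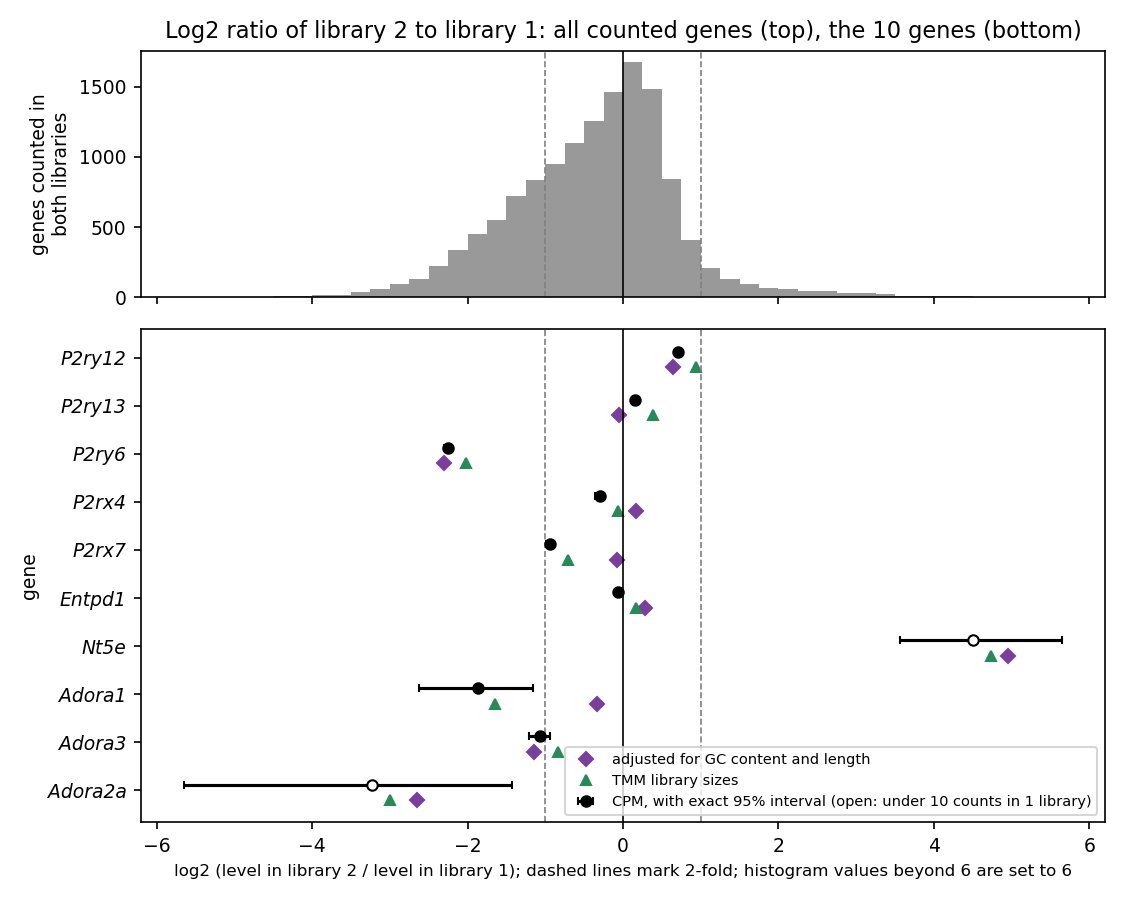
Log2 ratio of library 2 to library 1 for the 13445 counted genes (histogram) and for the 10 genes on the CPM scale (circles with exact 95% intervals for counting error, open where a library had fewer than 10 counts), with TMM library sizes (triangles) and after adjustment for GC content and length (diamonds). P2ry6 at −2.25 lies on the far left of the counted members, and Nt5e at 4.51 lies on the right in all 3 settings.

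The ratio between the libraries varied with transcript length over all genes. The median log2 ratio was 0.17 in the third decile of counted genes by longest transcript (1656 to 2143 bases), −0.77 in the eighth decile (4225 to 4970 bases) and −1.05 in the highest decile (6440 bases or more). By GC content it was −0.13 in the lowest decile and −0.64 in the highest. P2rx7 (longest transcript 4936 bases) and Adora1 (4968 bases) both fall in the eighth length decile. After subtraction of the median of genes alike in GC content and length, the log2 ratio of P2rx7 went from −0.94 to −0.08 and that of Adora1 from −1.87 to −0.34. P2ry6 has a longest transcript of 1946 bases, in a length decile where the median was above 0, and its adjusted ratio of −2.30 was as large as before. The adjusted ratios of Adora3 (−1.15), P2ry12 (0.65) and Nt5e (4.96) also stayed near their CPM values, while those of P2rx4 and Entpd1 changed sign to 0.17 and 0.28. After adjustment, 2 of the 8 counted members, P2ry6 and Adora3, were more than 2-fold apart, both lower in library 2, where 22.4% of all genes were, 12.7% lower and 9.70% higher.

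**Figure D3:**
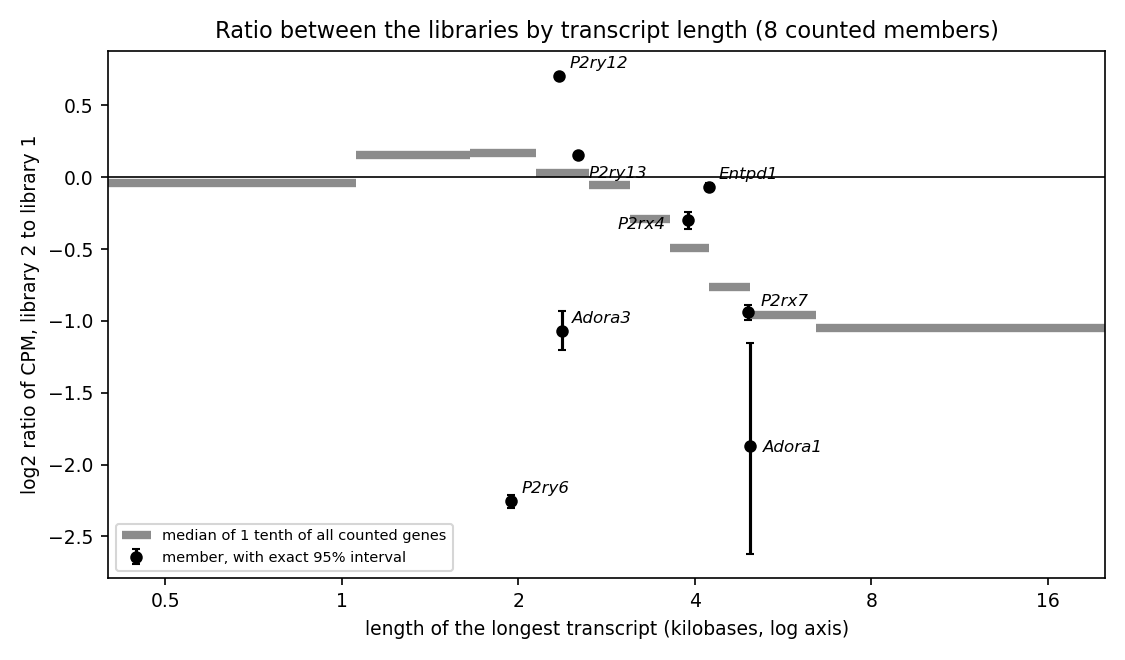
Log2 ratio of CPM in library 2 to library 1 against the length of the longest transcript (log axis) for the 8 counted members, with exact 95% intervals, and the median of each decile of all counted genes by length (grey bars, the first and last running past the axis). P2rx7 and P2rx4 lie near the grey medians, and P2ry6 at −2.25 lies far below that of its own decile.

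Set in the wider family, P2ry12 and P2ry13 accounted for 90.3% of the CPM per kilobase summed over the 20 receptor genes in library 1 and 97.3% in library 2. Of the 20 receptors, 13 were counted in both libraries, and P2rx2 and P2ry4 had no counts in either. Among the receptors outside the 10 genes, only P2rx1, a channel known from platelets and myeloid cells, and P2ry10b, a relative of receptors for lysophosphatidylserine, exceeded 10 CPM on average. P2rx1 had 20.8 and 27.0 CPM and P2ry10b 25.0 and 30.6 CPM. P2X1, P2Y1 and P2Y12 are also known from platelets, and 7 of the 8 platelet markers were under 1 CPM in each library, the exception being Gp9 with 43.6 and 60.6 CPM. P2ry1, the ADP receptor of platelets and astrocytes, had 8 and 62 counts.

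Of 12 further genes for ectonucleotidases and related phosphatases, 7 were counted in both libraries, with 3 more than 2-fold higher and 1 more than 2-fold lower in library 2, beside 5.74% and 25.9% of all counted genes. Enpp2, which encodes the lysophospholipase autotaxin, had 20.2 and 214 CPM, and choroid plexus markers summed to 24.2 and 367 CPM beside it. The part of choroid plexus RNA in this level was not tested. Acpp, a phosphatase that can make adenosine from AMP, had 16 and 289 counts, with a higher level in library 2 as for Nt5e. Entpd6, Entpd5 and Entpd7, which act mainly on nucleotides inside the secretory pathway, differed by less than 2-fold, with 45.3 and 24.7 CPM for Entpd6, 21.3 and 11.9 CPM for Entpd5 and 24.7 and 21.2 CPM for Entpd7. Enpp1, which splits ATP into AMP, had 16.6 and 6.81 CPM, and its log2 ratio of −1.29 became −0.28 after the length and GC adjustment.

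**Figure D4:**
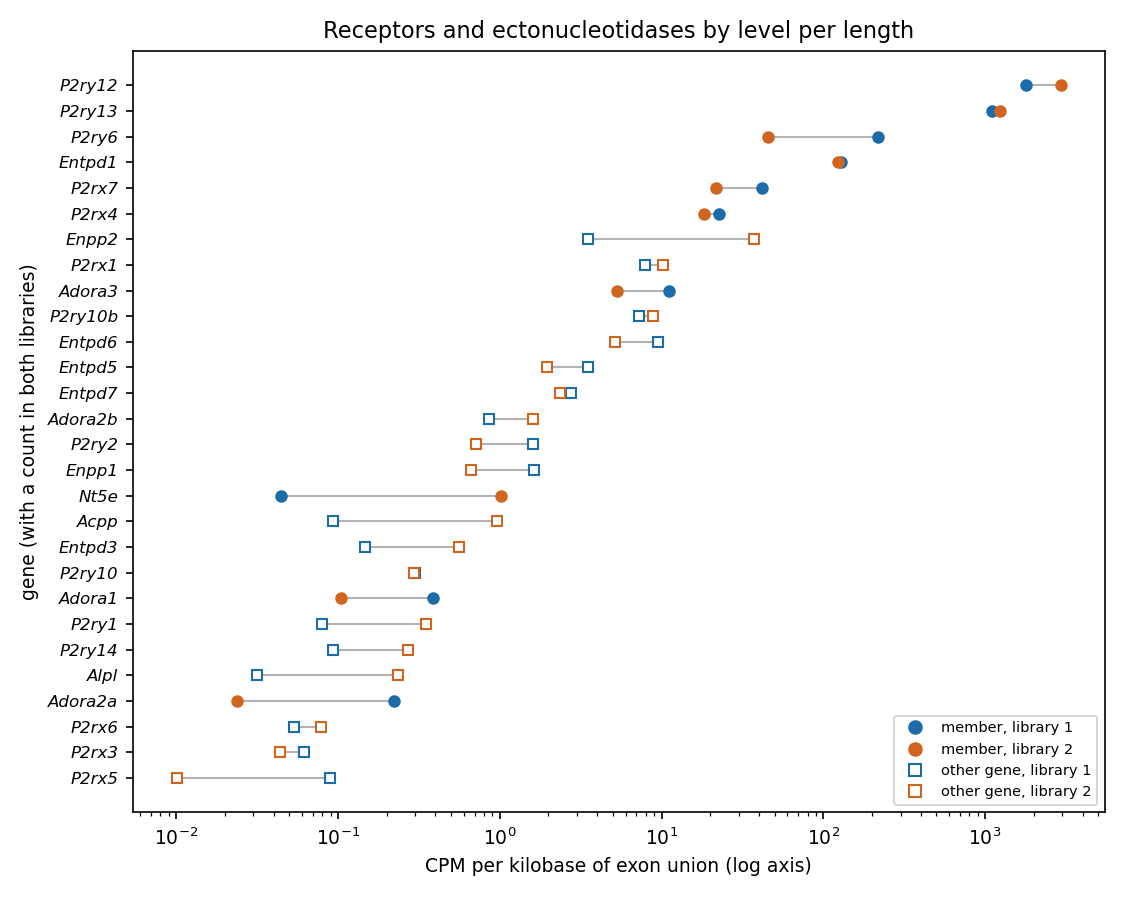
Level per kilobase of exon (CPM per kilobase, log axis) in library 1 (blue) and library 2 (orange) for the 28 of 34 receptor and ectonucleotidase genes with a count in both libraries. Filled circles are the 10 genes and open squares the others, and P2ry12 and P2ry13 lie at the top, above 1100 CPM per kilobase in both libraries.

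Of 9 genes for adenosine removal and transport, 7 were counted, 4 of them within 2-fold, as were 9188 of all 13445 counted genes. Slc29a3, a lysosomal nucleoside transporter, had the highest level per kilobase (151 and 63.5 CPM per kilobase, from 884 and 371 CPM), and its log2 ratio of −1.25 became −0.17 after adjustment for GC content and length. Slc29a1, the equilibrative transporter of the cell surface, had 146 and 142 CPM. The purine nucleoside phosphorylase gene Pnp had 68.9 and 85.2 CPM, the adenosine kinase gene Adk 18.1 and 21.7 CPM, and the adenosine deaminase gene Ada 9.67 and 16.0 CPM. Among 6 genes for ATP release, 5 were counted and 3 of these were within 2-fold, beside the same 9188 of 13445 counted genes. The vesicular nucleotide transporter gene Slc17a9 had 24.2 and 24.1 CPM, the pannexin gene Panx1 20.8 and 16.8 CPM, and Calhm2, of the calcium homeostasis modulator family, 78.7 and 74.1 CPM. Lrrc8a had 25.9 and 5.54 CPM, and 68.3% of its exon bases overlap other genes. Kcnk13, the gene of the potassium channel THIK-1 in microglia, had 186 and 172 CPM.

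Among the Gi and Gq family subunits that these receptors use, Gna15 and Gnai2 had the highest levels. Per kilobase of exon, Gna15 had 287 and 317 CPM and Gnai2 had 297 and 247 CPM, and their ranges overlapped. Gnai3 had 32.0 and 43.7 CPM per kilobase, Gnaq 16.9 and 7.43, and Gna11 13.6 and 4.86. Of the 9 alpha subunit genes, 6 were counted in both libraries, 2 of them, Gnaq and Gna11, more than 2-fold lower in library 2, which is near the 25.9% of all counted genes. After adjustment the log2 ratio of Gnaq went from −1.19 to −0.21 and that of Gna11 from −1.49 to −0.68. Gnas, the gene of the Gs subunit through which the Adora2a receptor acts, was listed with 22 and 28 counts. Antisense genes overlap 22.0% of its exon bases, and the part of this overlap or of the counting in that value was not tested, so the level of Gs is not ranked against the others.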

How the data were processed

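RNA-seq was measured in 2 libraries of sorted microglia from sham-operated mice, grouped by their titles. The authors made cDNA with the SMART-Seq HT Kit, built libraries by tagmentation, mapped reads to GRCm38 (HISAT2) and obtained counts per Ensembl gene (HTSeq). Versions, annotation release and strand setting are not given in the sources used here. The deposited values are raw counts, without normalization. Libraries after MCAO, the stroke model, were not used here.

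CPM were counts divided by the total of 23381026 or 41142609 counts and scaled to 1000000. Genes needed at least 10 counts in both libraries to be called counted. Symbols (53620 of 53801 genes), exon unions, transcript lengths and GC content were from GENCODE M21 (GRCm38). Starts in the files count from 0 and are printed from 1. Because cDNA is primed at the poly(A) tail, coverage of long transcripts can vary between libraries. The log2 ratio was adjusted by subtracting the median of its bin (10 bins each of GC content and length, GC content alone under 20 genes), which recovered a shift of 3 given to 200 genes as 3.01 over 13439 genes. Intervals are 95% Wilson for levels and exact binomial for ratios, and treat each read as independent. Amplified reads are not independent molecules, so the intervals can be too narrow even for counting error. They do not cover the spread between mice. The spread was edgeR's common dispersion. No p-value was computed. The 2 libraries differed far beyond sampling noise (chi-square per degree of freedom 438) and were not duplicates.

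Named genes were the 10 members and, from lists of 54 other genes of the pathway and the receptor cluster, those with a mean of at least 10 CPM or with exons shared with a member. Others were named after their values were seen. Members and lists were chosen with earlier results of these data known. Alternatives were TMM and DESeq2 scaling, other totals, filters, folds and lengths, the adjustment, and leaving out each library. Tools were R 4.3.3, edgeR 4.0.16, DESeq2 1.42.0, Python 3.11.15, numpy 2.4.6, pandas 2.3.3, scipy 1.17.1 and matplotlib 3.10.9.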

Additional observations from a re-analysis of the deposited data

How the results depend on the processing

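No paired analysis was possible because both mice belong to 1 group. With 2 mice, the common biological coefficient of variation over 13455 genes was 0.479, and leaving out a library cannot show stability. The number of members counted was 8, between 7 and 10 with other minimum counts, and 9 with either library left out. The share of P2ry12 in the members' counts was 56.9% on average, 49.9% to 63.9% with a library left out and 60.5% per kilobase. The number of members over 2-fold apart was 3, and 2 with TMM, DESeq2 size factors, totals without neutrophil markers, a fold of 3, at least 50 counts, or the GC and length adjustment. It was 5 with a fold of 1.5, which adds P2ry12 and P2rx7, and 5 with a minimum of 1 count, which adds Nt5e and Adora2a. P2ry6 was over 2-fold apart in each of these settings, Adora3 was not with TMM, DESeq2, totals without neutrophil markers or a fold of 3, and Adora1 was not after the adjustment or with at least 50 counts. The share over all genes was not computed for a fold of 1.5 or 3, other minimum counts or totals without neutrophil markers. The numbers of members in those settings are therefore not read against genes in general. The order per kilobase was the same over the longest transcript, and over the mean coding transcript Entpd1 passed P2ry6 and P2rx4 passed P2rx7.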
